A study of Homo sapiens with 12 samples.

Results

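The 77 genes described here encode proteins of the cytosolic ribosome in C4.2B cells. They are the rows of the deposited gene counts whose symbol is RPL or RPS followed by a number with or without a final A, plus RPS4X, RPLP0, RPLP1, RPLP2 and RPSA, out of 23228 listed genes. Of these, 46 belong to the large (60S) subunit and 31 to the small (40S) subunit. C4.2B is an established human cell line of castration-resistant prostate cancer and all 4 arms share its genetic background. PolyA RNA was sequenced from 12 libraries, with replicates A, B and C in each arm. The DMSO arm received vehicle, the GDC arm 0.5 µM of GDC-0941, an inhibitor of all class I PI3K forms, the GSK arm 5 µM of GSK126, and the COMBO arm both agents, for 24 h in medium with 10% charcoal-stripped FBS. GSK126 blocks EZH2, which places the repressive trimethyl mark on lysine 27 of histone H3, and cells of the GSK and COMBO arms had been pretreated with it for 6 days. All libraries came from a single cell line, and replicates were separate plates of it.

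The large subunit joins amino acids into protein and the small subunit reads the messenger RNA. Most ribosomal protein mRNAs start with a cytosine followed by a run of pyrimidines, the terminal oligopyrimidine (TOP) tract, through which mTORC1, a kinase complex downstream of PI3K, controls their translation by way of LARP1. TOP control acts mainly on how well the mRNA is translated, which mRNA counts do not measure. Assembly of the subunits needs a separate set of nucleolar factors, the ribosome biogenesis genes, and mitochondria carry their own ribosomes built from another set of nuclear genes.

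The start of the transcript was compared first, because the tract is the sequence feature that defines this class of mRNA and the rule for choosing members did not use it. Start positions were taken from RefSeq (GRCh38.p14), which gave a window for 62 of the 77 members, and the search was for C at the annotated first base followed by at least 4 bases that were each C or T, on the transcribed strand. Such a tract was present in 46 of 62 members (74.2%) and in 1404 of 27305 genes with a window (5.14%). The 6 windows below with a tract and the 3 without belong to members whose counts are described further on. Each runs from 15 bases before the annotated start to the 15 bases that begin with it, and capitals mark the tract.
RPL13A (chr19:49487593-49487622, plus strand): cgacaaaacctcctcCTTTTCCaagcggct
RPL28 (chr19:55385917-55385946, plus strand): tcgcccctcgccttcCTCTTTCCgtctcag
RPLP1 (chr15:69452803-69452832, plus strand): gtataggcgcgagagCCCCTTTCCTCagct
RPS6 (chr9:19380222-19380251, minus strand): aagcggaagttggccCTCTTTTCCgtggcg
RPL35 (chr9:124861943-124861972, minus strand): agccccgcctacttcCTCTTTCCCTCggag
RPSA (chr3:39406705-39406734, plus strand): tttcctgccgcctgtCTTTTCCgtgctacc
RPL9 (chr4:39458908-39458937, minus strand): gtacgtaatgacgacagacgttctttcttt
RPS26 (chr12:56041903-56041932, plus strand): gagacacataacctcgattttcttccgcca
RPL3 (chr22:39319609-39319638, minus strand): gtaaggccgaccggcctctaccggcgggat
The last 3 windows, those of RPL9, RPS26 and RPL3, have no capitals because the letters at the annotated start are not C followed by such a run. A start annotated a few bases away would change this reading, as the pyrimidines inside the RPL9 and RPS26 windows show. In the RPL3 window the annotated start is C followed by TCT, short of the 4 bases, and a start at the C just before it would meet the rule. Of the members with a tract that were tested, 35 of 45 rose in GDC, 29 in GSK and 22 in COMBO, and of the 16 without a tract 9, 9 and 8 did (edgeR, adjusted p under 0.05), while 20.0%, 40.0% and 43.3% of all genes tested rose. The difference between the classes was not tested.

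Ribosomal protein genes took a larger share of the gene counts in every treated library than in any DMSO library. Gene counts ranged from 8785218 to 44437751 per library. In DMSO, the 77 members held 3.96% ± 0.136 (SD, n = 3) of them, against 4.57% ± 0.0663 in GDC, 4.86% ± 0.0698 in GSK and 4.94% ± 0.121 in COMBO. Part of this depends on the denominator. Taken over all reads, including those outside genes, the shares were 3.003%, 3.38%, 3.43% and 3.34%, so that COMBO no longer stood above GDC. Reads falling outside any gene were 14.2% ± 0.481 of the DMSO total, 15.6% ± 0.268 for GDC, 18.8% ± 0.264 for GSK and 21.8% ± 1.07 for COMBO, and their part in the result was not tested. Counts of the large subunit exceeded those of the small subunit by a ratio of 1.40 ± 0.00470 under vehicle, 1.42 ± 0.00329 under GDC, 1.45 ± 0.00623 under GSK and 1.46 ± 0.0158 under COMBO. The ratio rose from DMSO through GDC to GSK with no overlap between libraries, whereas GSK and COMBO overlapped. It is a ratio of summed counts, in which abundant members such as RPL3 weigh most, and the part of single members in it was not tested. Luminal prostate markers were counted in every arm, with 10 of 10 tested, and their summed level moved with the arms without overlap, from 4029 to 4198 CPM under vehicle (counts scaled to library size by TMM, shown per 1e6), 5861 to 6061 under GDC, 5058 to 5493 under GSK and 6464 to 6949.8 under COMBO. Single markers went both ways. Called higher than vehicle (edgeR, adjusted p under 0.05) were 7 of 10 with GDC-0941, 7 with GSK126 and 8 with both agents. Called lower were 1, 2 and 1. Of all genes tested, 20.0%, 40.0% and 43.3% were higher and 20.0%, 35.7% and 39.2% lower. With both agents the log2 changes of the markers ran from -0.68 to 2.23. Abundant markers weigh most in a sum of CPM. The part of the marker levels in the results was not tested. Of 12 markers of stromal, endothelial, immune, basal and neuroendocrine cells 5 passed the filter on low counts (CD68, VWF, COL1A1, COL3A1 and SYP), CD3E had 0 counts, and the summed level was 19.4 to 22.3 CPM in DMSO, 22.9 to 28.2 in GDC, 42.1 to 54.7 in GSK and 43.9 to 63.8 in COMBO.

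**Figure D1:**
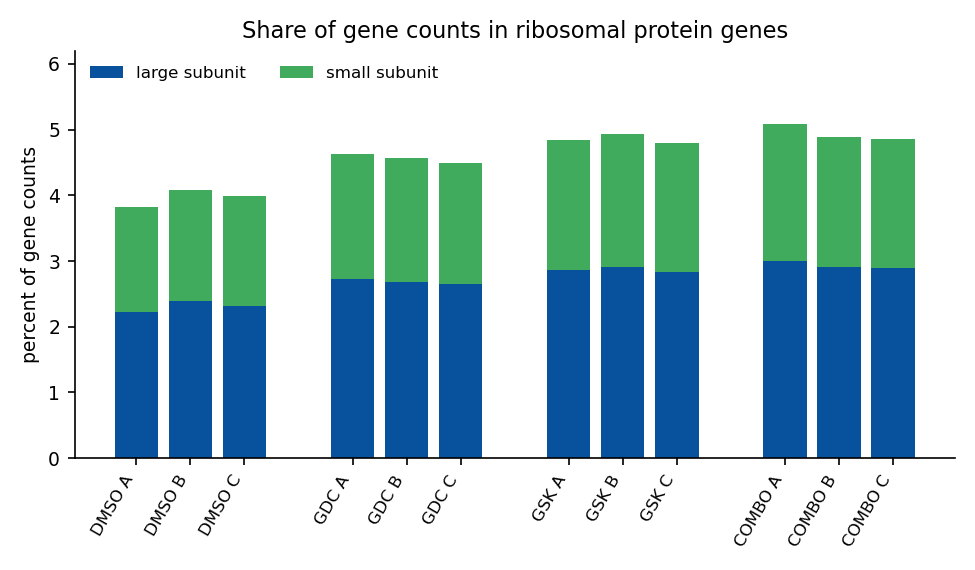
Percent of gene counts (y axis) in large-subunit and small-subunit genes, stacked, for each of the 12 libraries (x axis). The stacks of the 3 DMSO libraries end between 3.82% and 4.09%, below all GDC, GSK and COMBO libraries, which end between 4.50% and 5.08%.

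The PI3K inhibitor alone raised most members by a small amount. In GDC, 55 of the 75 tested members were higher than in DMSO and 1 was lower (edgeR quasi-likelihood test, adjusted p under 0.05), when 20.0% of all 14189 genes tested were higher and 20.0% lower. The median log2 change of the members was 0.16, against 0.016 for all genes tested. The median standard error of these changes was 0.043 for members and 0.078 over all genes, so small changes pass more readily among members. Libraries did not overlap for 63 members, whose 3 GDC values all lay above the 3 DMSO values (25.9% of all genes). The EZH2 inhibitor alone raised 45 members and lowered 7, with 40.0% of all genes higher and 35.7% lower. The median change in GSK was 0.15, and 0.058 over all genes. In GSK 49 members lay wholly above DMSO and 7 wholly below (40.2% and 36.3% of all genes). With both agents, 37 members were higher and 12 lower, and the share of higher calls, 49.3%, was near the 43.3% of all genes, while 39.2% of all genes were lower. The COMBO median was 0.089, and 0.054 over all genes. Without a filter on low counts and with DESeq2 the members' median in COMBO lay below that of all genes, at 0.040 against 0.18 and at 0.048 against 0.17. In COMBO 37 members lay wholly above DMSO and 13 wholly below (42.9% and 39.0% of all genes). CPM is a share of the library, so less of an mRNA per cell and fewer cells that make it cannot be told apart.

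Most of these changes were small next to those of other genes. The SD of the log2 changes was 0.15 over members against 0.40 over all genes in GDC, 0.22 against 0.998 in GSK and 0.30 against 1.20 in COMBO. These SDs include the error of the estimates, which was larger over all genes. Counts of calls moved with the scaling and with single libraries. For the other settings, shares of all genes called are not given here. Scaled to library totals alone, 64 members were higher and 5 lower in COMBO, with medians of 0.30 for the members and 0.26 for all genes. In GSK 64 were then higher and 2 lower, with medians of 0.30 for the members and 0.21 for all genes. Without a filter on low counts, 28 members were higher in GDC and 28 in GSK. Members called higher in GDC numbered 30 without DMSO replicate A, 31 without DMSO replicate C, 32 without GDC replicate A and 33 without GDC replicate B. Without DMSO replicate A the median change fell to 0.092 in GDC, 0.077 in GSK, where 11 members were then lower, and 0.056 in COMBO. A core did not depend on these choices: 25 members were higher in GDC, 26 in GSK and 29 in COMBO under each of 21 settings. The same count was not made over all genes, so no share of all genes can be set beside it. In the fit reported here alone, 20.0%, 40.0% and 43.3% of all genes were higher in GDC, GSK and COMBO. The core in COMBO held 19 large-subunit genes, RPL3, RPL10, RPL11, RPL13A and RPL28 among them, and 10 small-subunit genes, among them RPS27 and RPS3A. The members lower in COMBO under every setting were RPL9, RPL35, RPS10, RPS26 and RPSA.

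**Figure D2:**
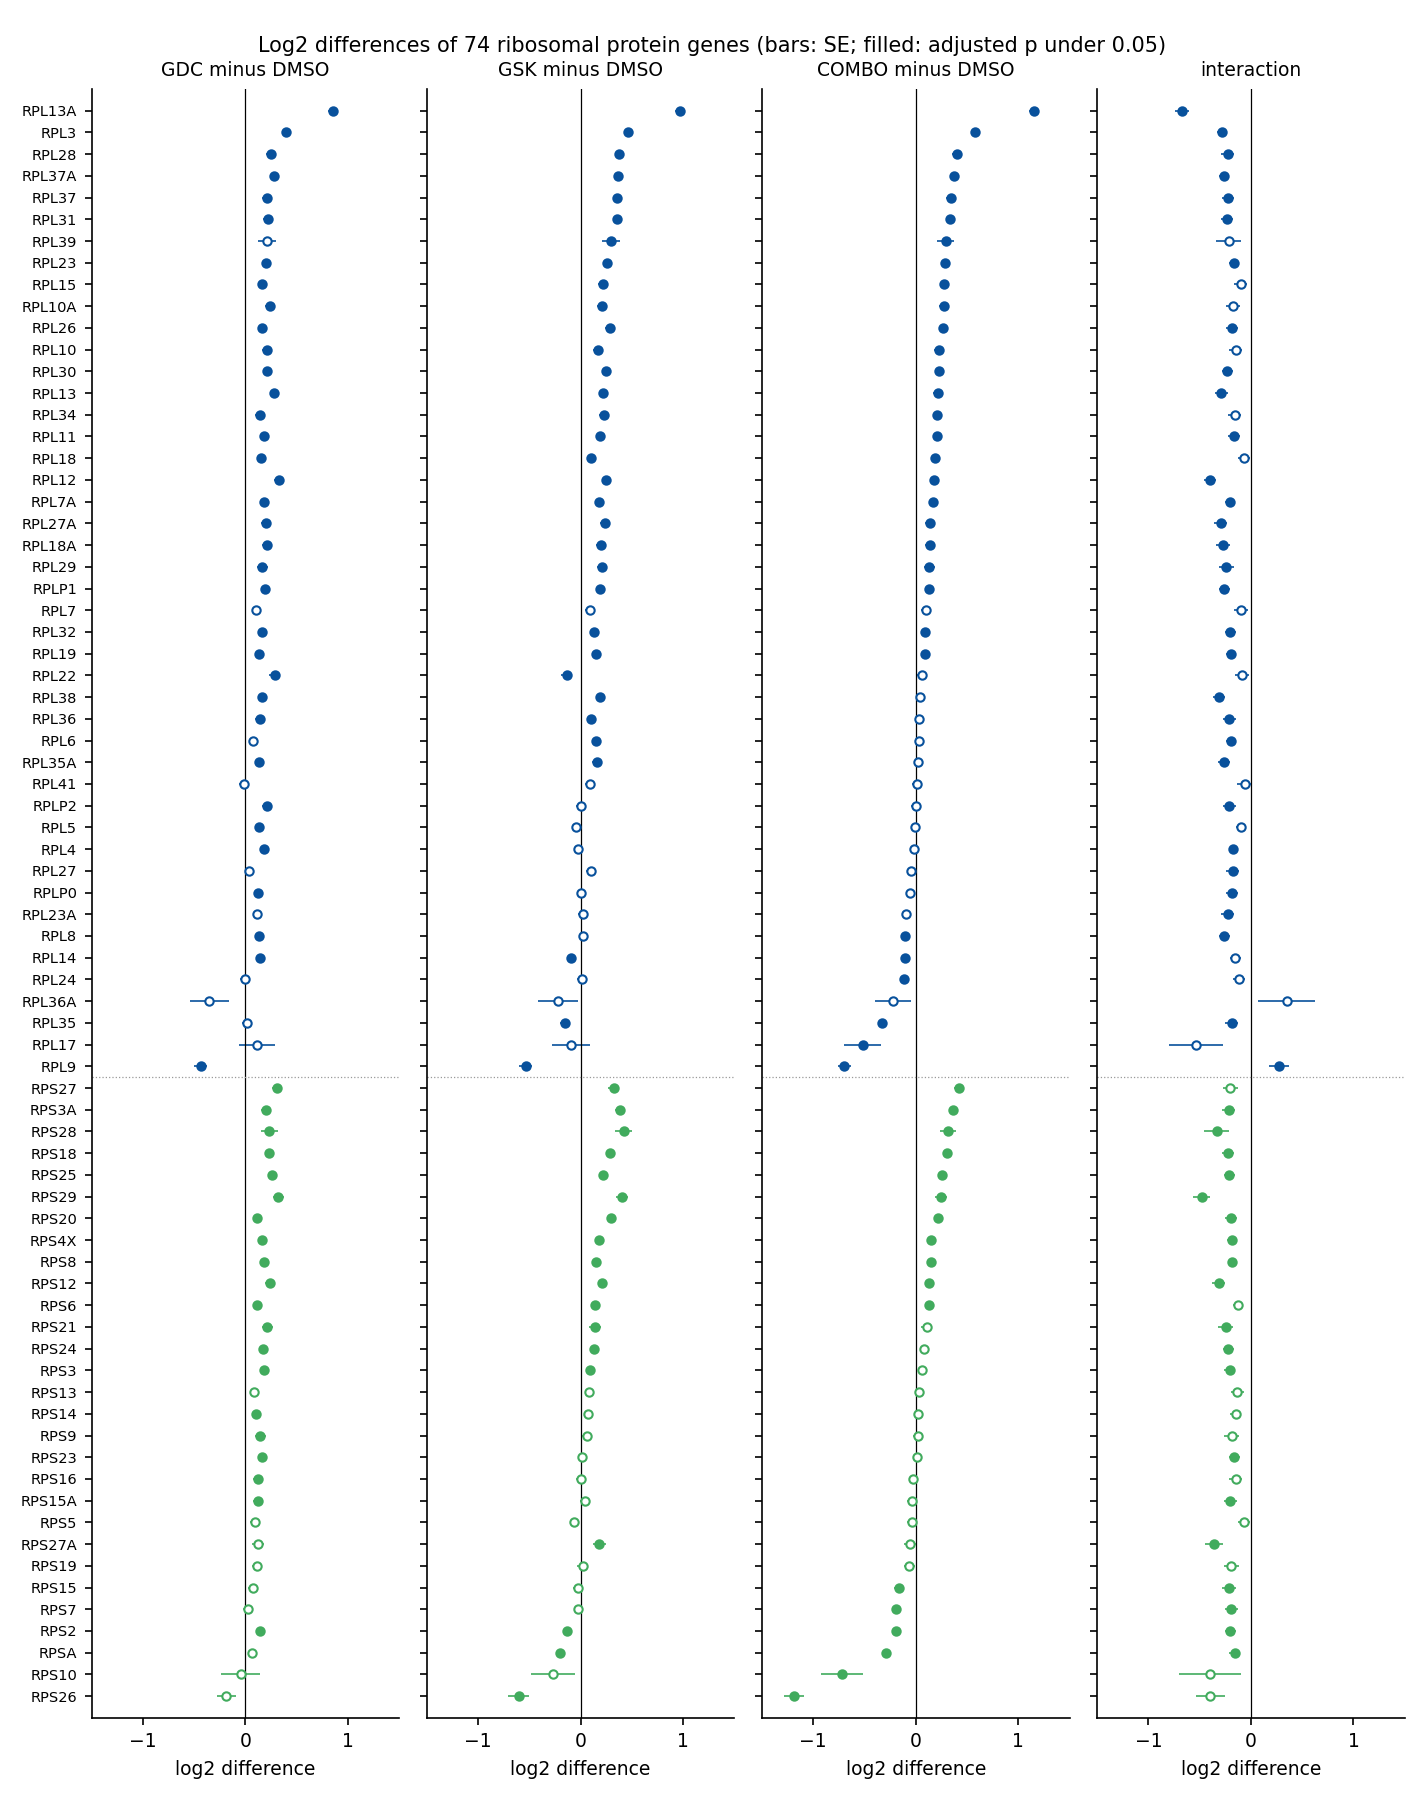
Log2 difference (x axis) of 74 of the 75 tested ribosomal protein genes (y axis, large subunit above the dotted line, ordered by the COMBO value) in GDC, GSK and COMBO against DMSO and in the interaction; bars are standard errors and filled points have an adjusted p under 0.05. Most points lie just right of 0 in GDC and left of 0 in the interaction, with RPL13A far right and RPL9 and RPS26 far left in COMBO.

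The median change of large-subunit genes was a little above that of small-subunit genes in the treated arms. In GDC, 34 of 45 large-subunit genes rose and 1 fell, and 21 of 30 small-subunit genes rose, with median log2 changes of 0.16 and 0.14. In GSK the counts were 29 higher and 4 lower for the large subunit and 16 and 3 for the small, with medians of 0.17 and 0.11. In COMBO they were 25 and 6 for the large subunit and 12 and 6 for the small, with medians of 0.12 and 0.049. The small-subunit share called higher there, 40%, was near the 43.3% of all genes, and 20% were lower against 39.2%. The small-subunit median lay just under the 0.054 of all genes, and 55.6% of large-subunit genes were higher. With GDC-0941 alone, 75.6% of large-subunit and 70% of small-subunit genes rose, against 20.0% of all genes. For GSK126 alone these shares were 64.4% and 53.3%, against 40.0%. Measured in each library as the median distance from the DMSO mean, the large subunit exceeded the small by 0.020, 0.015 and 0.017 in the GDC libraries, 0.055, 0.072 and 0.038 in GSK, and 0.063, 0.043 and 0.077 in COMBO. The same difference was 0.0099, 0.0013 and -0.011 in DMSO. On this measure all 9 treated libraries lay above the 3 DMSO libraries, and GSK and COMBO overlapped. A second measure, the median log2 CPM level of the large subunit less that of the small, ran the other way in GDC: it was -0.19 to -0.16 in the vehicle libraries and -0.22 in each GDC library, below all of them, against -0.16 to -0.083 with GSK126, overlapping DMSO, and -0.063 to -0.0014 with both agents, above it. Either difference is small beside the spread of the members of either subunit, and it was not tested.

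The stalk of the large subunit, where elongation factors dock, is built from RPLP0, RPLP1, RPLP2 and RPL12. All 4 were higher in GDC, with changes between 0.13 for RPLP0 and 0.32 for RPL12, although the RPLP0 call (adjusted p = 0.0136) was lost under 13 of 20 other settings. RPLP1 measured 578, 604 and 600.0 CPM under vehicle, 673, 689 and 674 under GDC, 676, 697 and 665 under GSK and 661, 637 and 646 under COMBO. Each treated library was above each DMSO library. RPL12 measured 369, 386 and 365 CPM in the DMSO libraries, 487, 449.6 and 467 with GDC-0941, 432, 434 and 467 with GSK126 and 426, 423 and 418 with both, again without overlap. These 2 stalk genes were called higher in GSK and COMBO, although the RPLP1 call in COMBO was lost without a filter and in a fit on the arms compared (adjusted p = 0.184 and 0.0660), while RPLP0 and RPLP2 had COMBO changes of -0.055 and -0.00040 (adjusted p = 0.193 and 0.993).

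RPL5 and RPL11 bind 5S rRNA, and outside the ribosome that complex inhibits MDM2, the ubiquitin ligase of p53. RPL11 rose in each arm, by 0.18 ± 0.039 (SE) in GDC, 0.19 ± 0.039 in GSK and 0.21 ± 0.039 in COMBO. Without a filter the RPL11 calls in GDC and GSK were lost (adjusted p = 0.0710 and 0.0527). RPL5 was higher in GDC (0.13 ± 0.037 SE, adjusted p = 0.00815), a call lost under 12 of 20 other settings, and had changes of -0.040 in GSK and -0.0088 in COMBO that did not pass. MDM2 itself changed by -0.77 and -0.70 in GSK and COMBO (adjusted p = 7.84e-11 and 1.50e-10). Near the peptidyl transferase centre, RPL3 and RPL10 were higher in each arm, though the RPL10 call in GSK was lost without a filter on low counts, without DMSO replicate A and without GSK replicate A (adjusted p = 0.132, 0.116 and 0.0550). RPL8 was higher in GDC (adjusted p = 0.00533), a call lost under 9 of 20 other settings, and lower in COMBO (-0.10 ± 0.036 SE, adjusted p = 0.0120). That COMBO change turned to 0.10 when libraries were scaled to their totals alone, and the call was lost without DMSO replicates B and C and with a minimum mean of 1 CPM (adjusted p = 0.0859, 0.0580 and 0.0775). Of 9 genes around the exit tunnel, 5 rose in GDC, 4 rose and 2 fell in GSK, and 4 rose and 2 fell in COMBO. The share that rose, 44.4% in GSK and in COMBO, was near the 40.0% and 43.3% of all genes.

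In the small subunit, 8 of 13 tested genes of the head and 13 of 17 of the body and platform rose in GDC (61.5% and 76.5%, against 20.0% of all genes). In COMBO 6 rose and 2 fell in the head, and 6 rose and 4 fell in the body and platform, so that 46.2% and 35.3% were higher, on either side of the 43.3% of all genes. RPS6, the substrate of the S6 kinases downstream of mTORC1, measured 1465, 1529.6 and 1529.6 CPM under vehicle, 1624, 1654 and 1622 under GDC, 1646, 1695 and 1647 under GSK and 1700.3, 1653 and 1589.8 under COMBO. All treated libraries were above DMSO, with changes of 0.11, 0.14 and 0.13 (adjusted p = 0.0111, 9.96e-04 and 0.00191). The GDC call of RPS6 was lost under 14 of 20 other settings and its GSK call without a filter, without DMSO replicate A and without GSK replicate B (adjusted p = 0.276, 0.0725 and 0.0720). Its COMBO call was lost without a filter and in a fit on the arms compared (adjusted p = 0.126 and 0.0566). RPS4X, whose gene lies on the X chromosome, was higher by 0.16, 0.18 and 0.15 in GDC, GSK and COMBO (adjusted p = 7.74e-04, 9.17e-05 and 2.95e-04), and without a filter its GDC and GSK calls were lost (adjusted p = 0.115 and 0.0806). RPS27A, which is made as a fusion with ubiquitin, was called higher in GSK (log2 change 0.18 ± 0.062 SE, adjusted p = 0.0113), and that call was lost under 7 of 20 other settings. Among 17 tested genes mutated in Diamond-Blackfan anaemia, an inherited failure of red cell production, 11 rose in GDC, 10 rose and 2 fell in GSK, and 8 rose and 4 fell in COMBO, where 47.1% higher was near the 43.3% of all genes.

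RPL13A, a large-subunit protein that also takes part in interferon-dependent silencing of translation, had the largest increase of all members in each arm. It measured 59.9, 58.1 and 62.2 CPM in the DMSO libraries, 106, 110.5 and 109 with GDC-0941, 117, 119.9 and 118 with GSK126 and 137, 136 and 128 with both. The arms followed each other upward without overlap. Relative to DMSO the fold was 1.80 in GDC, 1.96 in GSK and 2.22 in COMBO (log2 change 1.15 ± 0.048 SE, adjusted p = 1.02e-14), and the calls stood under every setting. RPL13A (chr19:49487510-49493057, plus strand) holds 4 annotated small nucleolar or micro RNAs, and 44.8% of its 50-base stretches also occur in transcripts of other genes. Its pseudogene rows RPL13AP6 and RPL13AP20 were higher too, by 0.59 (adjusted p = 0.00128) and 0.39 (adjusted p = 0.00846) in COMBO. Reads of the gene and of its copies cannot be told apart where the sequence is shared.

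RPL3, which lines the peptidyl transferase centre, measured 1375, 1438 and 1384 CPM under vehicle, 1834, 1839 and 1845 under GDC, 1996, 1909 and 1881 under GSK and 2057, 2097 and 2094 under COMBO. All 4 arms were separate from each other, with log2 changes from DMSO of 0.39 ± 0.033, 0.46 ± 0.033 and 0.57 ± 0.033 (SE; adjusted p at most 2.87e-08). RPL28 measured 379, 414 and 390.3 CPM in the DMSO libraries, 476, 467 and 463 with GDC-0941, 542, 511 and 485 with GSK126 and 523, 519 and 520.3 with both. Its DMSO libraries were below all others, and GSK and COMBO overlapped. The COMBO change was 0.40 ± 0.044 SE, adjusted p = 5.03e-08, and 1.54% of the 50-base stretches of RPL28 occur in other genes.

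RPS27, a zinc-binding small-subunit protein of the platform, measured 65.2, 64.3 and 69.7 CPM under vehicle, 78.3, 86.1 and 82.2 under GDC, 82.4, 85.2 and 82.0 under GSK and 88.8, 89.2 and 90.4 under COMBO. All treated libraries were above DMSO, GDC and GSK overlapped, and COMBO lay above both. It rose by 0.31, 0.32 and 0.42 (adjusted p = 9.28e-05, 1.33e-05 and 1.44e-07). RPS3A and RPS25 rose in each arm as well, with COMBO changes of 0.36 and 0.26 (adjusted p = 2.44e-07 and 2.94e-06). RPS28 and RPS29 had their largest change in GSK, 0.42 and 0.40 above DMSO (adjusted p = 1.69e-04 and 3.40e-06).

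**Figure D3:**
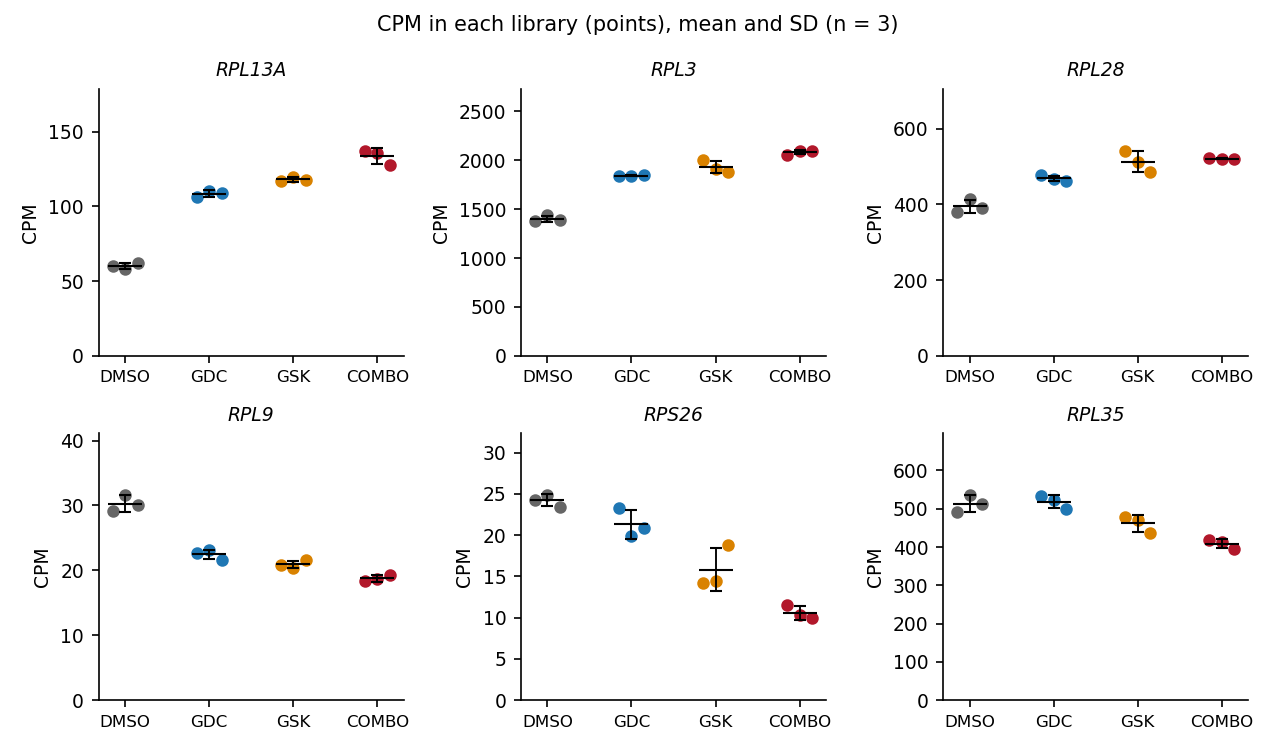
CPM (y axis, from 0) in each library of DMSO, GDC, GSK and COMBO (x axis) for 3 members that rose and 3 that fell; bars mark the mean and SD of 3 libraries. RPL13A climbs from about 60.1 CPM in DMSO to 133.7 in COMBO, whereas RPL9 falls from 30.3 to 18.7 and RPS26 from 24.2 to 10.6.

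RPL9 was the only member called lower than DMSO (adjusted p under 0.05) in each of the 3 arms. It measured 29.2, 31.6 and 30.1 CPM in the DMSO libraries, 22.6, 23.1 and 21.7 with GDC-0941, 20.9, 20.4 and 21.5 with GSK126 and 18.3, 18.6 and 19.3 with both. DMSO stood above all other libraries and COMBO below them, and the log2 changes were -0.44 ± 0.064, -0.54 ± 0.067 and -0.70 ± 0.064 (SE; adjusted p = 2.51e-05, 4.83e-07 and 3.17e-09). RPL9 drew few counts, 190 to 1251 per library, and 89.6% of its 50-base stretches are shared with other genes.

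RPS26, a small-subunit protein at the mRNA exit site and a gene of Diamond-Blackfan anaemia, measured 24.3, 24.9 and 23.4 CPM under vehicle, 23.2, 19.8 and 20.9 under GDC, 14.2, 14.4 and 18.8 under GSK and 11.5, 10.3 and 9.90 under COMBO. Its GSK libraries were below DMSO and its COMBO libraries below GSK. The COMBO change was -1.19 ± 0.097 SE, adjusted p = 5.84e-10, a fold of 0.439, the largest decrease among the members, and the GDC change of -0.19 did not pass (adjusted p = 0.113). Counts of RPS26 ran from 129 to 974 per library, and 30.5% of its 50-base stretches are shared.

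RPSA, which doubles as a laminin receptor at the cell surface, measured 649, 701 and 676 CPM in the DMSO libraries, 723, 692 and 706 with GDC-0941, 597, 584 and 581 with GSK126 and 555, 544 and 555 with both. GSK lay below DMSO and GDC, and COMBO lay below GSK (-0.29 ± 0.038 SE, adjusted p = 4.68e-07 against DMSO). The row of the pseudogene RPSAP58 had a COMBO change of -0.33 (adjusted p = 4.58e-07), and 75.5% of the 50-base stretches of RPSA are shared. RPL35, at the rim of the exit tunnel, measured 492, 536 and 512 CPM under vehicle, 534, 524 and 499 under GDC, 477, 470.5 and 437 under GSK and 419, 413 and 395 under COMBO. Its COMBO libraries were below all others (log2 change -0.33 ± 0.045 SE, adjusted p = 1.27e-06), whereas GDC overlapped DMSO. Scaled to library totals alone, the GSK changes of RPSA and RPL35 no longer passed (adjusted p = 0.246 and 0.997). RPS2 had changes of -0.13 in GSK and -0.20 in COMBO (adjusted p = 0.00397 and 9.59e-05), and both changes turned to a positive value near 0 under that scaling, 0.020 and 0.011. RPS10 and RPL17 fell in COMBO (-0.72 ± 0.20 and -0.52 ± 0.18, SE; adjusted p = 0.00276 and 0.0124) on 37.2 and 71.8 counts per library on average, with 90.4% and 96.6% of their stretches shared. The RPL17 call was lost under library totals and without DMSO replicate C (adjusted p = 0.119 and 0.0954).

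Each comparison with COMBO was repeated against the single agents. Adding GSK126 to GDC-0941 left 13 members higher and 32 lower in COMBO than in GDC, when 37.9% of all genes were higher and 38.0% lower. The median change of -0.071 became 0.10 under scaling to library totals, where 38 members were higher and 6 lower. The median of all genes moved with it, from 0.018 to 0.19, so that the members stood 0.089 below all genes under both scalings. Shares of all genes called under library totals are not given here. Without GDC replicate A or GDC replicate B the lower calls numbered 19 and 20, and the median moved to -0.033 without GDC replicate A. RPL35, RPS2, RPS26 and RPSA were lower under every setting, and RPL3, RPL13A, RPL15, RPL26, RPL28, RPL37 and RPS3A were among those higher under every setting. Adding GDC-0941 to GSK126 left 3 members higher and 12 lower (19.0% and 26.9% of all genes), with a median of -0.034 that became 0.021 under library totals. The median of all genes moved there from -0.014 to 0.040. The lower calls numbered 7 without DMSO replicate C, 5 without GDC replicate A, 6 without GDC replicate B, 5 without GSK replicate A, 3 without GSK replicate B and 7 without COMBO replicate C, and the higher calls 6, 5 and 5 without DMSO replicate A, GDC replicate A and GDC replicate B. RPL13A and RPL22 were higher, and RPS7, RPS26 and RPS27A lower, in COMBO than in GSK under every setting.

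The changes of the single agents did not add up in COMBO. On the log2 scale, the interaction (the COMBO change less the sum of the GDC and GSK changes) is negative where the former is the smaller. It was negative for 73 of 75 members and passed the test for 50 below and 1 above 0, when 16.5% of all genes were below and 4.86% above. The median was -0.20, against -0.063 for all genes, and the shift relative to all genes, -0.138, stayed between -0.160 and -0.115 under the 19 other settings. The number of calls did not hold: the members below 0 numbered 11 without DMSO replicate A, 28 and 13 without DMSO replicates B and C, 12, 11 and 15 without GDC replicates A, B and C, 16 and 12 without GSK replicates A and B, and 22 and 32 without COMBO replicates A and C. Those called under every setting were RPL3, RPL12, RPL13A, RPL38, RPS12 and RPS29. RPL13A was the most negative at -0.67 ± 0.068 (SE), followed by RPS29 at -0.48 ± 0.082 and RPL12 at -0.40 ± 0.061 (adjusted p = 6.71e-07, 2.76e-04 and 8.36e-05). RPL9 had the positive call (0.27 ± 0.096 SE, adjusted p = 0.0476), which was lost under 7 of the 19 settings, among them those without GDC replicate C, GSK replicates B and C and COMBO replicates B and C.

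**Figure D4:**
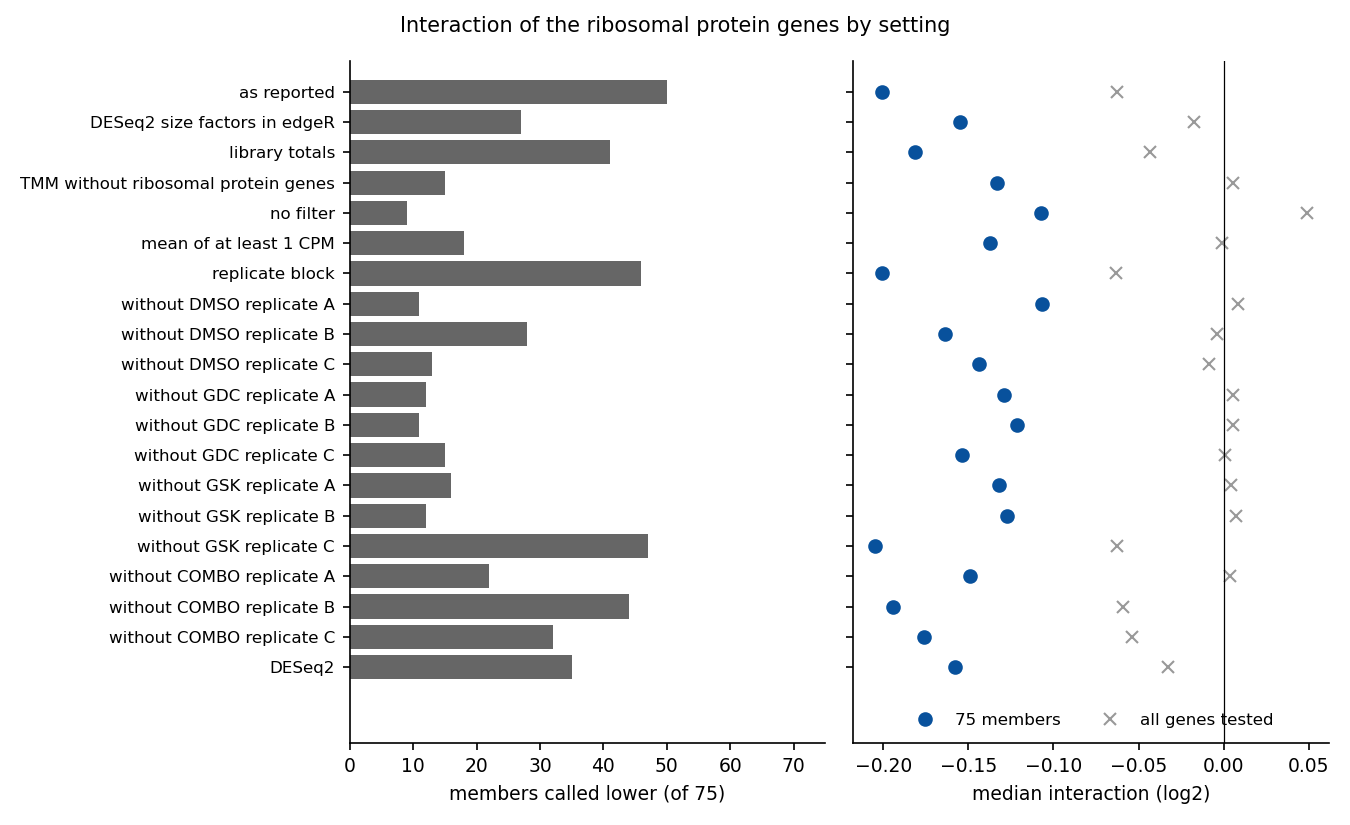
Left, number of the 75 members whose interaction was called below 0 (x axis) under each processing setting (y axis); right, the median interaction on the log2 scale of the members and of all genes tested. The number ranges from 9 to 50, while the members' median stays below that of all genes in each setting.

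Not every member could be measured equally well, since each has at least 1 and a median of 14 named pseudogenes. RPL21 (chr13:27251362-27256691, plus strand) had 0 counts in each of the 12 libraries, and 85.1% of its 50-base stretches occur in transcripts of other genes. A count of 0 is compatible with up to 3 counts. Reads with several alignments were summed in a line of their own, which held 8.06% of reads under vehicle. This line held 8.47% with GDC-0941, 8.71% with GSK126 and 8.87% with both agents, and the GSK126 libraries overlapped the other treated arms. Whether any such reads were also counted in members other than RPL21 is not given in the sources used here. Their part in the results of members with shared sequence was not tested. Over all members the shared portion ranged from 0% to 96.6%, with a median of 26.5%. Among the 25 members with at most 10% shared, a subset chosen after seeing the data, 22 rose in GDC, 17 rose and 1 fell in GSK, 12 rose and 2 fell in COMBO, and the interaction was called below 0 for 19. The share that rose in COMBO, 48%, was near the 43.3% of all genes. In GDC and GSK 88% and 68% rose, against 20.0% and 40.0% of all genes. The interaction was called below 0 for 76%, against 16.5% of all genes. Their medians were 0.16, 0.14 and 0.089 in GDC, GSK and COMBO. The large changes of RPL9, RPL13A, RPS10, RPS26 and RPL17 all fell outside this subset.

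Paralogs of ribosomal protein genes and those made as fusions were counted apart from the members. Of 9 tested genes in this group, 1 was higher and 5 were lower in COMBO (11.1% and 55.6%, against 43.3% and 39.2% of all genes). RPL22L1, the paralog that can replace RPL22 in the large subunit, measured 483, 480.4 and 492 CPM in the DMSO libraries, 491, 514 and 470.4 with GDC-0941, 359, 362 and 361 with GSK126 and 269.8, 261 and 223 with both. GDC overlapped DMSO, GSK lay below them, and COMBO lay below GSK (-0.95 ± 0.055 SE, adjusted p = 2.06e-12 against DMSO). RPL22 itself measured 209, 212 and 209.7 CPM under vehicle, 250.1, 266 and 252 under GDC, 197, 186 and 191 under GSK and 215, 237 and 204 under COMBO. It was higher in GDC (0.28, adjusted p = 1.68e-04), lower in GSK (-0.14, adjusted p = 0.0216) and not called in COMBO (0.060, adjusted p = 0.273), and the GSK call was lost without GSK replicate C (adjusted p = 0.0502) and the change turned to 0.017 under library totals. RPL7L1, which works in ribosome assembly, fell in COMBO, as did RPL26L1 and RPS27L, with changes of -0.96, -0.49 and -0.40 (adjusted p = 4.59e-14, 4.69e-08 and 5.00e-07). RPL10L, a retrogene known from testis, was higher by 1.20 (adjusted p = 5.12e-09) on 40 to 230 counts per library. FAU, made as a ubiquitin-like fusion with RPS30, was lower in COMBO (-0.22 ± 0.046 SE, adjusted p = 2.17e-04; adjusted p = 0.840 under library totals). RPL36AL and RPL39L passed in none of the 3 comparisons with DMSO, and RPL3L, the muscle paralog of RPL3, had at most 8 counts and was not tested.

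Of 22 tested TOP mRNAs outside the members, 12 were higher and 1 lower in GDC (54.5% and 4.5%, against 20.0% and 20.0% of all genes). In GSK these counts were 11 and 9, and in COMBO 12 and 8, with a COMBO median of 0.16. These are 50% higher and 40.9% lower in GSK and 54.5% and 36.4% in COMBO, close to all genes tested (40.0% and 35.7%, 43.3% and 39.2%). The elongation factors EEF1A1 and EEF2 rose by 0.40 and 0.53 in COMBO (adjusted p = 3.03e-10 and 1.77e-10), VIM, an intermediate filament gene, by 1.40, and the import receptor IPO7 fell by 1.10 (adjusted p = 4.35e-13 and 5.70e-14). Of 7 tested host RNAs of small nucleolar RNAs, 4 were higher and 2 lower in COMBO, from SNHG8 at 0.93 to SNHG12 at -1.16. In shares this is 57.1% higher and 28.6% lower, against 43.3% and 39.2% of all genes. Among 12 regulators of TOP mRNAs and S6, EIF4EBP1, a translation repressor inactivated by mTORC1, had the largest decrease in COMBO (-1.92 ± 0.063 SE, adjusted p = 2.48e-16) and TSC1, an mTORC1 inhibitor, the largest increase (0.75 ± 0.070 SE, adjusted p = 4.33e-09). LARP1 was lower in GSK and COMBO (-0.50 and -0.53, adjusted p = 5.89e-08 and 1.35e-08).

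The nucleolar genes that build ribosomes were lower in the treated arms. All 63 ribosome biogenesis genes were lower in COMBO than in DMSO, 62 were lower in GSK and 49 in GDC, with medians of -1.23, -1.02 and -0.25. Of all genes tested, 39.2% were lower in COMBO, 35.7% in GSK and 20.0% in GDC. TCOF1, a nucleolar factor of rRNA transcription, fell by 2.58 in COMBO, the most of this group (adjusted p = 6.88e-19). Dedicated chaperones of single ribosomal proteins were lower in 10 of 10 cases in COMBO, and LTV1 fell by 1.58 (adjusted p = 2.48e-16). Of the mitochondrial ribosomal protein genes, 75 of 75 tested were lower in COMBO, 66 in GSK and 46 in GDC, with medians of -0.90, -0.52 and -0.19. Library by library, the median distance from the DMSO mean in COMBO was 0.15, 0.11 and 0.078 for large-subunit genes, 0.090, 0.068 and 0.00079 for small-subunit genes, -1.24, -1.22 and -1.24 for biogenesis genes, and -0.86, -0.88 and -0.91 for mitochondrial ribosomal protein genes. The ranges of the cytosolic genes and of the other 2 groups did not overlap in any treated arm, and the difference between groups was not tested.

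**Figure D5:**
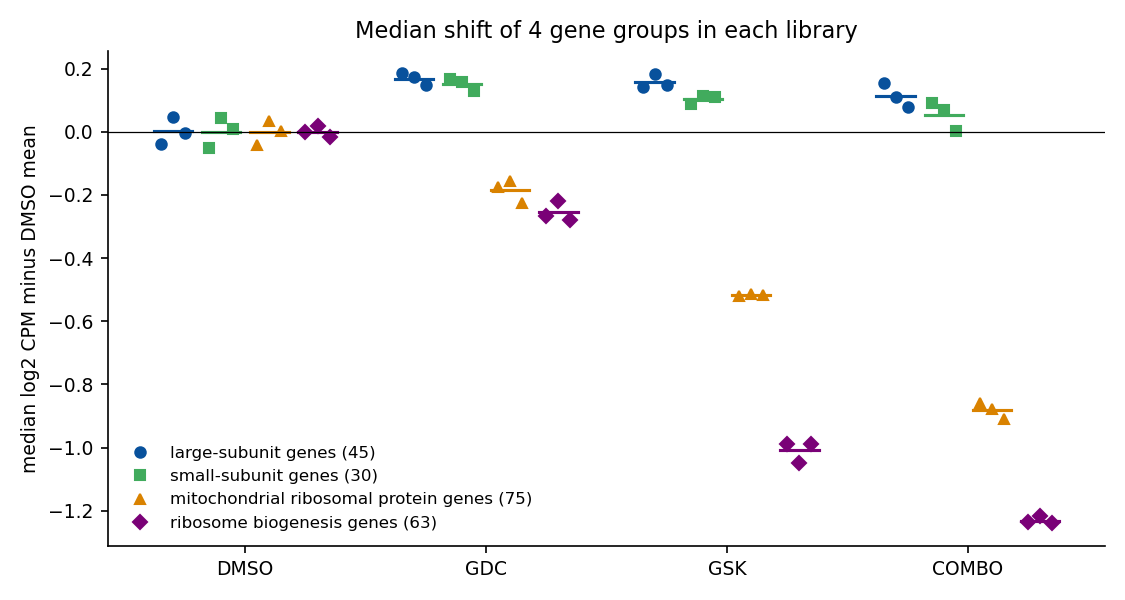
Median log2 CPM relative to the DMSO mean (y axis) of 4 gene groups in each library of the 4 arms (x axis); points are libraries and lines are means of 3. Cytosolic ribosomal protein genes stay between 0.00079 and 0.19 in treated libraries, while biogenesis genes reach -1.24 and mitochondrial ribosomal protein genes -0.91.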

How the data were processed

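PolyA RNA-seq reads of 12 C4.2B libraries were aligned to hg38 with STAR and counted per gene with HTSeq by the authors, who deposited whole-number counts per gene symbol without normalization. Versions of these tools, the gene annotation and strand handling are not given in the sources used here, so reads of overlapping and antisense genes cannot be told apart. A deposited table of normalized values was not used, and 0 columns of per-sample values mapped to no library. Lines that sum reads without a gene, with more than 1 gene or with several alignments held 23.7% to 33.7% of reads per library and entered neither library sizes nor tests.

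Two-sided quasi-likelihood tests (glmQLFit, glmQLFTest) were run with edgeR 4.0.16 under R 4.3.3, with TMM scaling, filterByExpr (14189 genes kept), 1 coefficient per arm over all 12 libraries and no other term (common biological coefficient of variation 0.0499). Calls needed a Benjamini-Hochberg adjusted p under 0.05, adjusted over all genes tested. Log2 CPM used a prior count of 2. Alternatives were DESeq2 1.42.0, other scalings and filters, fits on the arms compared, a replicate block, and leaving out each library. The test was checked on simulated counts. Libraries within an arm varied beyond counting noise (chi-square per degree of freedom 1.81 to 6.60). Replicates were separate plates of 1 line, so p-values measure the spread between plates. Intervals and a limit of 3 counts behind a 0 cover counting error only.

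Start windows came from RefSeq (GRCh38.p14), and gene positions and shared 50-base stretches from GENCODE 44. Members and gene lists were chosen with earlier results of these data known. Genes named are those of the stalk, the 5S particle and the peptidyl transferase centre, RPS6, RPSA, RPS27A and RPS4X, the 3 highest and 3 lowest called members per subunit in the 3 comparisons with DMSO and in the interaction, members failing the filter, the paralogs, and the highest and lowest called gene of each other list in COMBO. Others, such as EEF1A1, EEF2, LARP1, the pseudogene rows and the members called under every setting, were named after their values were seen. The results of a few genes that this rule would name are not reported here.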

Additional observations from a re-analysis of the deposited data

Results flagged for a closer look

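The interaction tests whether the effect of one inhibitor differed with and without the other. It passed an adjusted p under 0.05 (edgeR) for 27 of the named genes. The named members include those with the highest and lowest called interactions, which therefore passed by construction. Over all genes tested, 16.5% were called below 0 and 4.86% above. Because of how the genes were named, the count of 27 cannot be weighed against these shares. On the log2 scale the large-subunit members with a negative interaction were RPL13A at -0.67, RPL12 at -0.40, RPL38 at -0.31, RPL3 at -0.28, RPLP1 at -0.26, RPL8 at -0.26, RPL28 at -0.23, RPLP2 at -0.21, RPL35 at -0.19, RPLP0 at -0.19 and RPL11 at -0.17. In the small subunit they were RPS29 at -0.48, RPS27A at -0.36, RPS28 at -0.34, RPS3A at -0.22, RPS25 at -0.21, RPS2 at -0.20, RPS4X at -0.18 and RPSA at -0.16. RPL9 was the member with a positive value, 0.27.

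Among genes outside the members, RPL22L1 stood at -0.54, EIF4EBP1 at -0.34, RPL26L1 at -0.32, RPS27L at -0.24 and FAU at -0.22, while VIM stood at 0.31 and MDM2 at 0.24. Of these 27 calls, those of RPL3, RPL12, RPL13A, RPL38 and RPS29 among the members were made under every setting tried. That of RPSA was lost under each of the 19 other settings and that of RPL11 under 18. Calls of RPLP0, RPLP2, RPL28, RPL35, RPS2, RPS3A, RPS4X, RPS25 and RPS28 were lost without DMSO replicate A and also without a filter. The same held for FAU, RPL26L1, RPS27L and EIF4EBP1. RPLP1 and RPL8 lost their calls without a filter, RPS27A without GDC replicate B and MDM2 without COMBO replicate B. The VIM call was lost without DMSO replicate B, GDC replicate B or COMBO replicate C.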

How the results depend on the processing

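Of 391 summary values recomputed under alternatives, 304 stayed within 1.5 times or the replicate spread. Scaling to library totals moved the median of all genes to 0.21 in GSK and 0.26 in COMBO. It moved to 0.19 in COMBO against GDC and 0.040 in COMBO against GSK. Relative to all genes the members' median then stood at 0.091 and 0.036 in GSK and COMBO. In COMBO against GDC and COMBO against GSK the members' median stood at -0.089 and -0.019. In COMBO against DMSO the members' median stood below all genes without a filter (-0.135) and with DESeq2 (-0.124), where it was 0.035 as reported. Under library totals GSK had 2 members lower and a median of 0.30, COMBO 64 higher, 5 lower and 0.30, COMBO against GDC 38 higher, 6 lower and 0.10, and COMBO against GSK 9 higher, 4 lower and 0.021. Without a filter, GDC had 28 higher, 2 lower and a median of 0.10, GSK 28 higher and 0.069, COMBO against GSK 4 lower, and the interaction 9 below and -0.11. With a minimum mean of 1 CPM, COMBO against GDC had 16 lower and -0.0058, COMBO against GSK 5 higher, and the interaction 18 below and -0.14. TMM without ribosomal protein genes gave 5 higher in COMBO against GSK and 15 below with a median of -0.13 in the interaction, where DESeq2 size factors gave 27 below and DESeq2 0 above. Fits on the arms compared gave 2 lower in GDC and 5 lower in COMBO against GSK. In the subset with little shared sequence, added after seeing the data, 0, 1 and 2 were lower in GDC, GSK and COMBO, 0 higher in COMBO against GSK and 0 above in the interaction. Means in place of medians put large minus small at -0.019, -0.00336, 0.026 and 0.073 in DMSO, GDC, GSK and COMBO, against -0.18, -0.22, -0.12 and -0.040. Over all reads the members' shares were 3.003%, 3.38%, 3.43% and 3.34%.

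Leaving out each library gave 30 to 54 members higher, 1 to 2 lower and medians of 0.092 to 0.15 in GDC; 34 to 46, 5 to 11 and 0.077 to 0.15 in GSK; 31 to 38, 8 to 16 and 0.056 to 0.10 in COMBO; 9 to 15, 19 to 30 and -0.076 to -0.033 in COMBO against GDC; 2 to 6, 3 to 11 and -0.043 to 0.00058 in COMBO against GSK; and 0 to 1, 11 to 47 and -0.21 to -0.11 in the interaction. Over all arms the replicate letters showed no general pairing (correlation of same-letter deviations -0.084 to 0.19, over 0.1 in 2 of 18 pairs, and 6 of 12 libraries correlated best with their own letter). Between GDC and COMBO the same-letter values were 0.116, 0.188 and 0.073 for A, B and C, against -0.146 to 0.045 for other letters. With a replicate block, 53 members were higher in GDC, 44 in GSK and 37 in COMBO, and the interaction was above 0 for 0 and below for 46.

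Library totals reversed these log2 changes: in GSK, RPL5 to 0.11, RPL22 to 0.017, RPS2 to 0.020 and RPL26L1 to 0.0040; in COMBO, RPLP0 to 0.15, RPLP2 to 0.21, RPL5 to 0.20, RPL8 to 0.10, RPS27A to 0.15, RPS2 to 0.011 and RPL36AL to 0.12; in COMBO against GDC, RPLP1 to 0.11, RPL12 to 0.027, RPL5 to 0.034, RPS4X to 0.17, RPL38 to 0.055 and RPL36AL to 0.13. The cause was not tested. A subset of members without a named pseudogene held 0 genes and was not run.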
